A study of Mus musculus with 8 samples.

Results

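The peaks described here are the places where PU.1 and CEBPA were called by ChIP-Seq in the PuER line of X18.1.1, a murine acute myeloid leukaemia cell line. Every peak in the PU.1 list (15683) was set against every peak in the CEBPA list (20583) of the same line, 36266 of the 67673 peaks in the 4 lists used from the series. A peak was called joint when it shared at least 1 bp with a peak of the other factor, and otherwise PU.1-only or CEBPA-only. ChIP-Seq uses an antibody to pull a protein down with its DNA, which is then sequenced, and peaks are called where reads accumulate. X18.1.1 has a deletion of one Pu.1 allele and mutations in the other, and this background was shared by all libraries. The PuER line also carried a retrovirus for PuER, in which wild-type PU.1 is joined to the oestrogen receptor and can be activated with 4-hydroxytamoxifen (OHT), and the comparison line carried the empty vector. Each line was 1 clone and was kept for 2 h in 100 nM OHT. The PU.1 antibody does not separate the fusion from the endogenous mutant protein, so in the PuER line the binding of each cannot be told apart. There was 1 library for each antibody and line, so no test between libraries was possible. Shares have exact (Clopper-Pearson) 95% confidence intervals and differences between shares have Newcombe intervals. Both cover counting error only, and peaks of 1 library are not replicates. The lists gave a start and an end for each peak, all 400 bp wide, with no height or read count, so the depth is unknown. The calling threshold decides which peaks are missing from a list, so a missing peak does not show that binding was absent.

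PU.1 is an ETS-family transcription factor needed for monocytes, macrophages, granulocytes and B cells, and ETS proteins bind sites with a GGAA core. CEBPA is a basic leucine zipper factor that binds as a dimer to sites made of a pair of TTGC half-sites and drives granulocyte and monocyte differentiation. The factors share many enhancers in myeloid cells, where PU.1 helps to open chromatin for other factors.

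Sequences under some peaks are given first, chosen for the sites they hold, so they do not stand for the classes as a whole. Genes from 7 lists of myeloid and haematopoietic genes had 162 joint peaks. With 1 autosome left out of the search, 2 of them had both an ETS site (GGAAGT) and a CEBP site (TTGCNNAA, N being any base) within 40 bp of the PU.1 centre, without an annotated exon there. Of all joint peaks, exons included, 5.28% had both sites there, against 5.90% for the product of the separate shares of the sites. The 2 peaks at listed genes are given, read 5′ to 3′ from GRCm38 (mm10) with the sites in capitals. A CEBP site on the opposite strand reads TTNNGCAA. The first lies between genes, 45.73 kb upstream of *Sirpa*, which encodes an inhibitory receptor of macrophages, and the second lies beyond the 3′ end of *Zeb2*, which encodes a zinc finger repressor.
Sirpa, joint, chr2:129547068-129547147, minus strand: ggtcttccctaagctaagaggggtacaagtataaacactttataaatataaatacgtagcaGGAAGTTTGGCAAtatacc
Zeb2, joint, chr2:44953098-44953177, plus strand: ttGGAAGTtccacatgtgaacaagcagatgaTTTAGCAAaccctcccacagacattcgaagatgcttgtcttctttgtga
In the *Sirpa* sequence the sites run into each other and share 1 T. With the stretch running from 40 bp outside one centre to 40 bp outside the other, 16.4% of all joint pairs held both sites. At the listed genes 18 of the 162 did. The next 5 sequences are those of this kind with the closest centres, 1 for each further gene and outside exons, a choice made after the data were seen.
Ifngr2, joint, chr16:91546567-91546688, minus strand: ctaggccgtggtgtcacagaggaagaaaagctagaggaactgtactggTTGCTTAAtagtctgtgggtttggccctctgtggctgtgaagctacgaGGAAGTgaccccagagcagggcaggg
Fcgr2b, joint, chr1:170939440-170939575, plus strand: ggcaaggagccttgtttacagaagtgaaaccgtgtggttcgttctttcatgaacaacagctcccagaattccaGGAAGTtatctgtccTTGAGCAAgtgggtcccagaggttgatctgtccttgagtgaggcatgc
Mcl1, joint, chr3:95653716-95653855, minus strand: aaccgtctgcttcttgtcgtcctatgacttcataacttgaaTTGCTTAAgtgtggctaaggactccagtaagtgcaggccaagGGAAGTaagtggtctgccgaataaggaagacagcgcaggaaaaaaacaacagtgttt
Cybb, joint, chrX:9462881-9463046, minus strand: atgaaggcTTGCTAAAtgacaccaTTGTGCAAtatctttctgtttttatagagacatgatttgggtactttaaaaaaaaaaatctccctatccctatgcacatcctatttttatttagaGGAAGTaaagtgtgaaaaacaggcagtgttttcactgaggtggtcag
Tnfaip3, joint, chr10:19053646-19053841, minus strand: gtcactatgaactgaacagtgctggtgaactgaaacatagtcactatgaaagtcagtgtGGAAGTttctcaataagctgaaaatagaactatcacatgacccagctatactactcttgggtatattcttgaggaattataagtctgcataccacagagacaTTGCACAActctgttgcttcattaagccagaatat
At *Cybb*, which encodes the catalytic subunit of the phagocyte NADPH oxidase, the ETS site lay 4 bp from the PU.1 centre and the nearer of the CEBP sites 12 bp from the CEBPA centre, with the centres 86 bp apart in an intron. At *Mcl1*, which encodes an anti-apoptotic BCL2 relative, the corresponding distances were 14 and 5 bp. At *Tnfaip3*, an inhibitor of NF-κB signalling, they were 22 and 9 bp, with the centres 116 bp apart. In the other 4 pairs the sites did not both follow their own factor. In the *Zeb2* pair the CEBP site lay 5 bp from the PU.1 centre and 108 bp from the CEBPA centre. In the *Fcgr2b* pair the ETS site lay 36 bp from the PU.1 centre and 20 bp from the CEBPA centre, and in the *Sirpa* pair 24 and 20 bp. In the *Ifngr2* pair, 0.42 kb upstream of the gene for a chain of the interferon-γ receptor, both sites lay nearer to the centre of the other factor. There the ETS site lay 59 bp from the PU.1 centre and 17 bp from the CEBPA centre. Peaks of a single factor at the same lists are shown by the sites nearest to the peak centre, within 1 bp of it in all 4. Of all PU.1-only peaks 46.1% had an ETS site within 40 bp of the centre, and of all CEBPA-only peaks 40.2% had a CEBP site there.
Inpp5d, PU.1-only, chr1:87658136-87658215, minus strand: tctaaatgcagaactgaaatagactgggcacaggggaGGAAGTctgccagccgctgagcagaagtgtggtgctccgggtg
Cebpe, PU.1-only, chr14:54713058-54713137, minus strand: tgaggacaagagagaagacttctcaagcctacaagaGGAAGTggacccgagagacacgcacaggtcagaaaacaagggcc
Adgre1, CEBPA-only, chr17:57358601-57358680, minus strand: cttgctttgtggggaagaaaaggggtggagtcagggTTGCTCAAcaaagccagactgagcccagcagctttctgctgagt
Ifngr1, CEBPA-only, chr10:19598172-19598251, minus strand: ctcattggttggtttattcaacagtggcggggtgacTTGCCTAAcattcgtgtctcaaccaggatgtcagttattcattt
The *Inpp5d* and *Ifngr1* windows are intronic. The *Cebpe* window lies 0.92 kb upstream of the gene and the *Adgre1* window 0.05 kb upstream of the gene for the macrophage antigen F4/80.

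PU.1 and CEBPA were called at the same place in a minority of peaks of either factor. A CEBPA peak overlapped 4680 PU.1 peaks (29.8%, 95% confidence interval 29.1–30.6%) and was missing at 11003. Of the CEBPA peaks, 4682 (22.7%, 22.2–23.3%) overlapped a PU.1 peak and 15901 did not. Merging the lists gave 31582 regions, of which 4678 (14.8%) held both factors, 34.8% held PU.1 alone and 50.3% held CEBPA alone. Nearly all regions with both factors, 4673 of 4678, held 1 peak of each. The joint share of PU.1 peaks ranged from 22.2% (17.9–26.9%) on chromosome X to 32.9% (29.9–36.0%) on chromosome 4, and that of CEBPA peaks from 18.8% (16.5–21.3%) on chromosome 8 to 28.0% (25.8–30.2%) on chromosome 1.

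Within joint pairs the centres were close. The median spacing was 52 bp (interval of the median 50–54 bp), with quartiles of 21 and 101 bp. The number of PU.1 peaks per bp of spacing was 51.7 below 25 bp, 39.0 from 25 to 50 bp, 24.2 from 50 to 100 bp and 2.49 from 200 to 400 bp. It was 1.53 from 400 to 600 bp, where peaks no longer overlap, and 0.864 from 1000 to 2000 bp. Joint calls therefore came mostly from centres less than 100 bp apart (3480 of 4680), and few pairs were decided by the 1-bp limit. PU.1-only peaks lay a median of 13653 bp from the nearest CEBPA centre, and CEBPA-only peaks 19588 bp from the nearest PU.1 centre. Both classes leave out overlapping pairs by definition. Over all peaks, joint ones included, the median was 4965 bp from PU.1 to CEBPA and 10332 bp from CEBPA to PU.1. For scale, the nearest other PU.1 peak lay a median of 15528 bp from a PU.1 peak, and the nearest other CEBPA peak 11725 bp from a CEBPA peak.

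**Figure D1:**
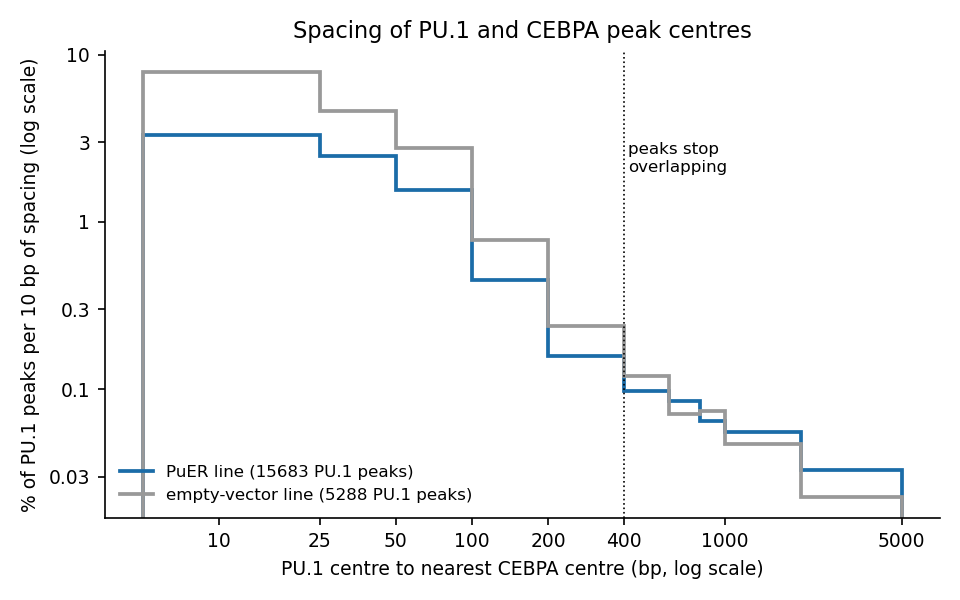
Share of PU.1 peaks (percent per 10 bp of spacing, log scale) by distance from the PU.1 centre to the nearest CEBPA centre (bp, log scale) in the PuER and empty-vector lines, the first bin running from 0 to 25 bp and drawn from 5 bp. In the PuER line the share was 3.30% per 10 bp below 25 bp and 0.158% from 200 to 400 bp, and the dotted line marks 400 bp.

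Some peaks of the 2 factors also lay near each other without overlapping. A CEBPA centre lay within 5 kb of 50.1% of PU.1 peaks, against 29.8% that were joint. When peaks of either list were chained across gaps of up to 5 kb, 23959 chains resulted and 25.4% of them held both factors. Overlapping pairs were kept, so every joint pair gives a chain with both factors, and these shares largely count the overlaps again. Both were present in 70.8% of chains of 2 peaks, in 91.1% of those of 3 or 4, and in 459 of the 465 chains of 5 to 9. Larger chains are bound to hold both factors more often by their size alone. The chain with most peaks held 8 PU.1 and 6 CEBPA peaks over 15.8 kb at chr15:66809797-66825578, where *Sla*, encoding a negative regulator of antigen receptor signalling, overlaps the thyroglobulin gene *Tg*. Another of 9 peaks, 3 PU.1 and 6 CEBPA, lay at *Itgb2*, encoding the β chain of the leukocyte integrins.

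Position relative to genes differed between the classes, both at promoters and between genes. A promoter peak had its centre within 1000 bp of the start of a protein-coding transcript. Promoters held 10.98% of joint peaks (10.1–11.9%), 12.4% of PU.1-only peaks (11.8–13.1%) and 19.4% of CEBPA-only peaks (18.8–20.1%). The difference of joint minus CEBPA-only peaks was −8.46 percentage points (interval −9.52 to −7.35) and that of joint minus PU.1-only peaks was −1.45 points (−2.52 to −0.343). With promoters taken as 500 bp, the second of these differences was −0.459 points and its interval, −1.37 to 0.488, included no difference. Between genes lay 45.3%, 42.2% and 37.2% of the joint, PU.1-only and CEBPA-only peaks. The median distance to a start was 14561.5, 12147 and 10242 bp, in the same order. Joint peaks lay farther than 50 kb from any start in 23.2% of cases, against 20.3% of PU.1-only and 19.4% of CEBPA-only peaks.

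The share of CEBPA peaks that were joint was lower close to starts. It was 12.2% (10.5–14.0%) within 100 bp of a start, 15.5% (14.0–17.0%) from there to 1 kb, 22.5% (21.2–23.9%) from 1 to 5 kb and 26.0% (24.7–27.4%) beyond 50 kb. For PU.1 peaks the share was 28.5% (24.97–32.2%) within 100 bp, 26.8% (24.3–29.3%) from there to 1 kb and 32.7% (31.1–34.4%) beyond 50 kb, a smaller range. CEBPA-only promoter peaks were also richer in G and C, with a median of 56.0% of bases against 51.1% in joint and 51.75% in PU.1-only promoter peaks. Outside promoters the medians were 45.25%, 45.25% and 45.0% in the same order. The GC box GGGCGG was found in the central 80 bp of 4.73% of CEBPA-only peaks, against 1.52% of joint and 1.70% of PU.1-only peaks, and in 1.63% of flanking windows of CEBPA-only peaks. Peaks with at least 50% of their bases masked as repeats made up 4.86% of PU.1-only peaks, 1.35% of joint and 1.63% of CEBPA-only peaks.

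**Figure D2:**
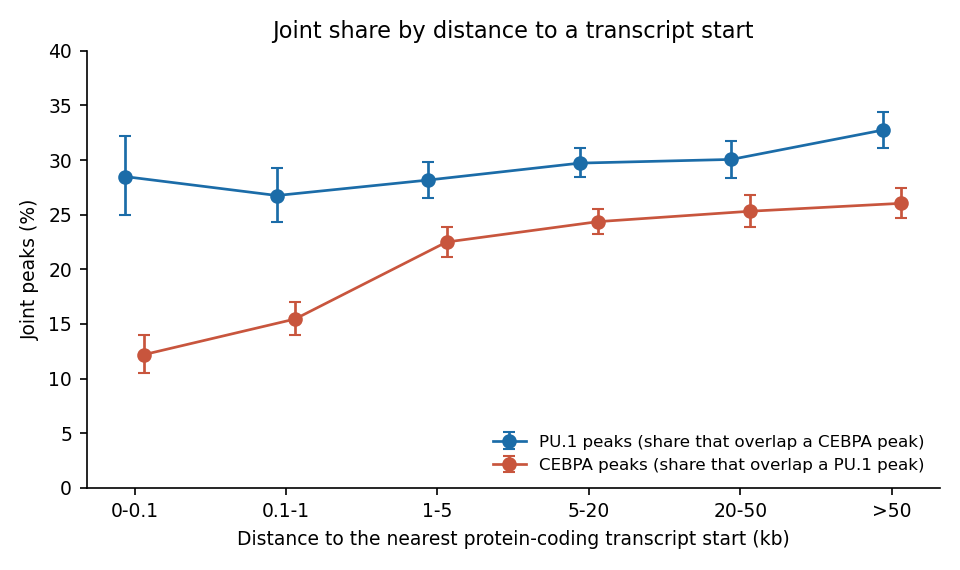
Percent of PU.1 peaks (blue) and of CEBPA peaks (red) in the PuER line that were joint, by distance from the peak centre to the nearest protein-coding transcript start (kb), with exact 95% intervals. The share of CEBPA peaks goes from 12.2% within 0.1 kb to 26.0% beyond 50 kb, while that of PU.1 peaks stays between 26.8% and 32.7%.

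The labels were checked by the sites under the peaks, since peak lists hold no marker genes. Motifs were searched on both strands in the central 80 bp, and windows of equal length 2000 bp to either side served as background. The ETS site GGAAGT was present in 46.1% of PU.1-only peaks (45.2–47.0%), in 37.4% of joint peaks at the PU.1 centre (36.0–38.8%), in 21.4% of joint peaks at the CEBPA centre (20.2–22.6%) and in 7.45% of CEBPA-only peaks (7.04–7.87%). The flanking windows had it in 4.40% to 4.89%. The CEBP site TTGCNNAA was present in 40.2% of CEBPA-only peaks (39.4–40.9%), in 31.3% of joint peaks at the CEBPA centre (30.0–32.7%), in 15.8% at the PU.1 centre (14.8–16.9%) and in 3.71% of PU.1-only peaks (3.36–4.08%), with 3.19% to 3.55% of flanking windows. PU.1-only peaks thus had CEBP sites at close to the share of their flanks (3.19%), and CEBPA-only peaks had ETS sites somewhat above theirs (4.89%). At its own centre each factor had its own site less often in joint than in single peaks. The difference was −8.69 percentage points (−10.4 to −7.02) for ETS sites at PU.1 centres and −8.85 points (−10.4 to −7.30) for CEBP sites at CEBPA centres.

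More specific forms of the sites were rarer, and all but 1 stood in the same order of classes. The exception was CCGGAAGT, another extended ETS form. It was found in 0.673% of CEBPA-only peaks, 0.327% of PU.1-only peaks and 0.235% of joint peaks at the PU.1 centre. GAGGAAGT, the extended form PU.1 prefers, was found in 16.9% of PU.1-only peaks, in 11.2% of joint peaks at the PU.1 centre and in 0.654% of CEBPA-only peaks. The composite of GGAA and GAAA with 2 free bases between them, to which PU.1 binds together with IRF4 or IRF8, was found in 13.5% of PU.1-only peaks (12.9–14.2%), 7.71% of joint peaks at the PU.1 centre (6.97–8.52%) and 0.541% of CEBPA-only peaks, with 0.823% to 0.852% of flanking windows. It overlaps GGAAGT wherever its free bases are G and T. The palindrome TTGCGCAA was found in 3.04% of CEBPA-only peaks (2.78–3.32%), in 0.555% of joint peaks at the CEBPA centre (0.363–0.813%) and in 0 of 11003 PU.1-only peaks, where the interval reached 0.0335%. TTGCATCA, a site for dimers of CEBP and ATF proteins, was found in 5.04% of CEBPA-only peaks and 3.44% of joint peaks at the CEBPA centre. The RUNX site TGTGGT was more frequent in joint than in single peaks. It was found in 13.8% of joint peaks at the CEBPA centre (12.8–14.8%) and 12.5% at the PU.1 centre (11.5–13.5%), against 10.3% of CEBPA-only (9.86–10.8%) and 9.43% of PU.1-only peaks (8.89–10.0%), with 6.03% to 6.46% of flanking windows. The AP-1 site TGANTCA was found in 5.30%, 4.66%, 4.80% and 3.58% of these sets, with 2.30% to 2.51% of flanking windows. GATA sites (AGATAA) were below the flanking share in all classes, at 2.52% to 3.26% against 4.42% to 4.91%.

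All 8-base sequences, each counted together with its reverse complement, were ranked by their excess over the flanks. AGGAAGTG led in both joint peaks at the PU.1 centre (13.1% of peaks) and PU.1-only peaks (18.7%). It was followed in both by ACTTCCTC, which is GAGGAAGT on the other strand, and AGAGGAAG. At the CEBPA centre of joint peaks the order was TTGCACAA (6.41%), AGGAAGTG (6.47%) and TTGAGCAA (4.89%). CEBPA-only peaks were led by TTGCACAA, ATTGCACA and TGATGCAA, the last being TTGCATCA on the other strand. Sequences that overlap in this way can come from the same sites.

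**Figure D3:**
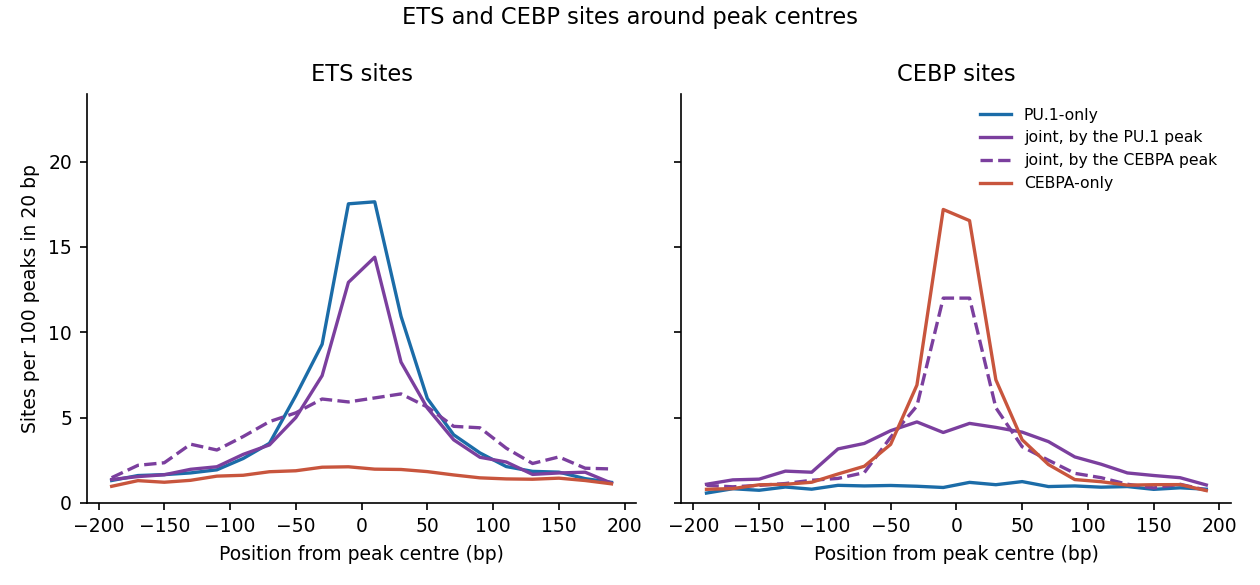
ETS sites (GGAAGT, left) and CEBP sites (TTGCNNAA, right) per 100 peaks in 20-bp bins by position from the peak centre (bp), for PU.1-only (blue), joint (purple, solid around the PU.1 centre and dashed around the CEBPA centre) and CEBPA-only peaks (red). Each site peaks at its own factor's centre, and in joint peaks forms a broader rise around the other factor's centre.

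The sites followed the centre of their own factor within joint pairs. Pairs were grouped by spacing. At the PU.1 centre, ETS sites were present in 38.1% of pairs less than 25 bp apart and in 41.2% of those 200 to 400 bp apart. CEBP sites at the same centre were present in 28.8% (26.3–31.3%) of pairs less than 25 bp apart, 19.4% (16.9–22.0%) at 25 to 50 bp, 9.65% (8.05–11.5%) at 50 to 100 bp and 4.41% (3.02–6.20%) at 100 to 200 bp. At the CEBPA centre, CEBP sites were present in 30.4% and 36.6% of the closest and widest pairs, and ETS sites in 36.1% and 8.45%. The windows around the centres overlap below 80 bp, so the closest pairs share sequence. The stretch from 40 bp outside one centre to 40 bp outside the other was also searched. It held both sites in 16.4% of joint pairs (15.4–17.5%) and an ETS site alone in 29.2%. It held a CEBP site alone in 20.6% and neither in 33.7% (32.4–35.1%). The product of the separate ETS and CEBP shares was 16.9%, so the sites were not found together more often than those shares alone would give.

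**Figure D4:**
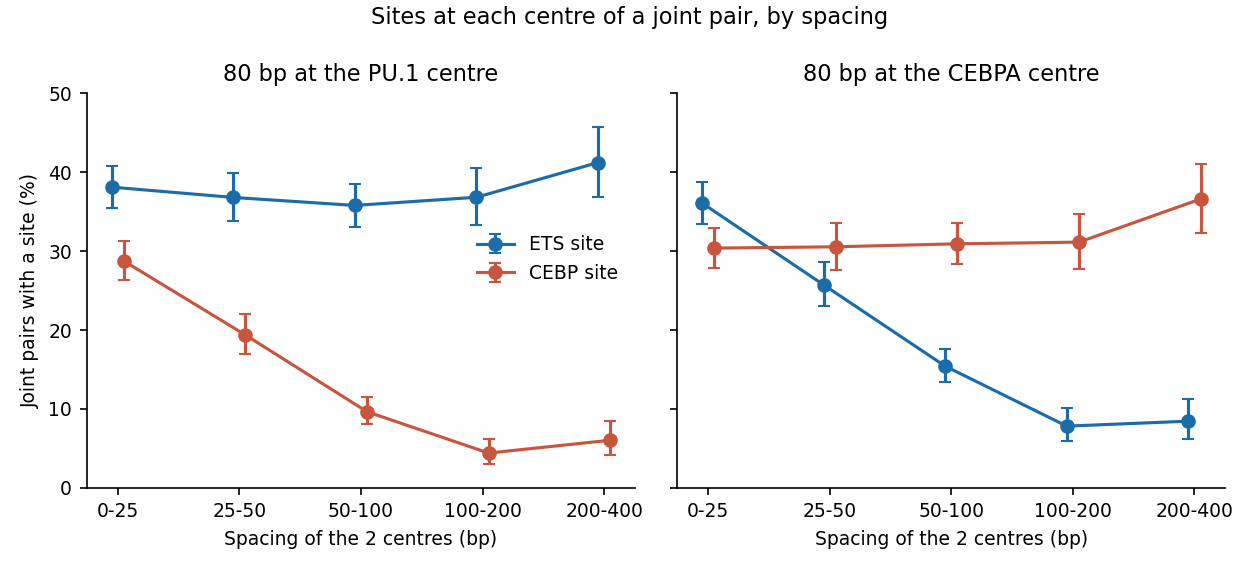
Percent of joint pairs with an ETS site (blue) or a CEBP site (red) in the 80 bp at the PU.1 centre (left) and at the CEBPA centre (right), by the spacing of the centres (bp), with exact 95% intervals. The factor's own site stays between 30.4% and 41.2% at every spacing, and the other site goes from 28.8% to 6.04% at the PU.1 centre and from 36.1% to 8.45% at the CEBPA centre.

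In 570 pairs this stretch, from 40 bp outside one centre to 40 bp outside the other, held exactly 1 ETS and 1 CEBP site. The ETS site was nearer to the PU.1 centre in 71.9% of them (68.0–75.6%). The CEBP site was nearer to the CEBPA centre in 78.4% (74.8–81.7%). Both held in 56.7% of pairs, and in 5.26% each site was nearer to the centre of the other factor. Among the 335 pairs with centres at least 50 bp apart, both held in 65.4% (60.0–70.5%). The ETS site lay a median of 18 bp from the PU.1 centre and 48.5 bp from the CEBPA centre, and the CEBP site 14 bp from the CEBPA centre and 55.5 bp from the PU.1 centre. The sites themselves were a median of 48 bp apart. They were on the same strand in 51.4% of pairs (47.2–55.6%), and the CEBP site was on the T side of GGAAGT in 54.7% (50.5–58.9%). That side was not preferred at every distance. Its share was 87.1% (27 of 31) for sites less than 8 bp apart, 51.1% to 66.7% in the bins from 8 to 120 bp and 42.4% beyond.

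One arrangement stood out among the distances between these sites, and it was examined further after the values were seen. In 26 of the 570 pairs the centre of the CEBP site lay 6 bp beyond the centre of GGAAGT on its T side, so that the sites shared 1 T, while no other distance was found in more than 11 pairs. Letters so arranged read GGAAGTTGCNNAA, or GGAAGTTNNGCAA where the CEBP site is on the other strand. The first was found in the whole 400 bp of 27 joint PU.1 peaks (0.577%, 0.381–0.838%), of 45 CEBPA-only peaks (0.283%, 0.206–0.378%) and of 4 PU.1-only peaks (0.0364%, 0.0099–0.0931%), and in 0.0126% to 0.0427% of flanking stretches of the same length. The second was found in 18, 35 and 4 peaks of these classes. With 1 base set between the sites, GGAAGTNTTGCNNAA was found in 2, 3 and 3 peaks. The overlapping form has fewer fixed letters than the spaced one, so by letters alone it would be found more often. With 1 autosome left out, joint peaks held the overlapping forms at 44 positions, a median of 37 bp from the PU.1 centre. A few of 30 bases each, from outside exons, show the run in capitals.
Nedd9, joint, chr13:41460148-41460177, minus strand: agtcacagaGGAAGTTGCCAAAgccagatg
Dock2, joint, chr11:34707491-34707520, plus strand: aaatggttGGAAGTTGAGCAAcaaggttct
Nos2, joint, chr11:78916559-78916588, minus strand: gaaaactggGGAAGTTAGGCAAtgttccag
Hgf, joint, chr5:16541848-16541877, minus strand: attgaaaagGGAAGTTGCAAAActaacttg
*Dock2* encodes an activator of RAC in leukocyte migration, *Nos2* the inducible nitric oxide synthase of macrophages, *Nedd9* a scaffold of integrin signalling and *Hgf* hepatocyte growth factor.

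Genes were then sorted by the factors called at them. A promoter peak was assigned to the genes starting there, a peak in a gene to that gene, and a peak between genes to its neighbours on both sides up to 50 kb away, so neighbours can share a peak. Of 21938 protein-coding genes, 14.6% (3195) had a joint peak, 10.9% (2396) had both factors at separate peaks only, 8.69% (1906) had PU.1 only, 16.6% (3635) had CEBPA only and 49.3% (10806) had neither. Genes with peaks of both factors made up 25.5%, those with any PU.1 peak 34.2% and those with any CEBPA peak 42.1%. Long genes collect more peaks. Median lengths were 41.4 kb for genes with a joint peak, 39.9 kb for those with separate peaks, 20.6 kb for PU.1 only, 20.2 kb for CEBPA only and 9.95 kb for neither. When genes were split into 4 bins by length, 5.89% of the shortest and 27.7% of the longest bin had a joint peak. Most genes with a joint peak had 1 (2210 genes), and 54 had at least 5. At promoters alone, 516 genes had a joint peak, 258 had separate peaks of both factors, 1023 had PU.1 only and 2752 had CEBPA only.

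Joint peaks were found at most genes of the myeloid lists. In 8 lists of haematopoietic and myeloid genes, 87 of 129 genes (67.4%) had a joint peak, against 14.6% of all protein-coding genes, although the listed genes were shorter, with a median of 14.1 kb against 17.4 kb. In each of these 4 bins the listed share was higher, at 59.5% against 5.89% in the shortest and 75% against 27.7% in the longest. In 6 lists of T cell, B cell, erythroid, liver, neuronal and ribosomal protein genes, 10 of 108 genes (9.26%) had one. The lists were chosen with earlier results of these data known. Some members, *Tnfaip3* and *Bcl2* among them, are PU.1 targets that the paper picked with PU.1 peaks of this line. These contrasts are therefore partly set by the choice of genes. All 6 NADPH oxidase subunits had a joint peak, with 3 at *Cybb* and 2 each at *Cyba*, *Ncf4* and *Rac2*. So did 23 of 29 monocyte and macrophage surface proteins, 16 of 20 haematopoietic signalling proteins, 9 of 12 myeloid growth factor receptors, 16 of 24 myeloid transcription factors, 10 of 16 granule proteins and 5 of 8 PU.1 and CEBP factor genes. None of the 16 liver or the 16 neuronal genes had one. Of liver genes 4 of 16, *Alb* and *G6pc* among them, had CEBPA only, and of 28 ribosomal protein genes 8 did, against 16.6% of all genes. In the T cell list *Tcf7*, *Cd6* and *Cd3d* had 1 joint peak each, and in the B cell list *Igll1* and *Vpreb1*, which encode the surrogate light chain, and *Blnk*, an adaptor of B cell receptor signalling, had 1 each. *Gata3* and *Pax5*, factors of T and B cells, had 1 PU.1 peak each and no CEBPA peak. Of 16 erythroid genes 4 (*Gata1*, *Hemgn*, *Ermap* and *Hbb-bt*) had PU.1 only, against 8.69% of all genes, *Klf1* had CEBPA only, and *Tfrc*, the transferrin receptor, had the 1 joint peak.

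**Figure D5:**
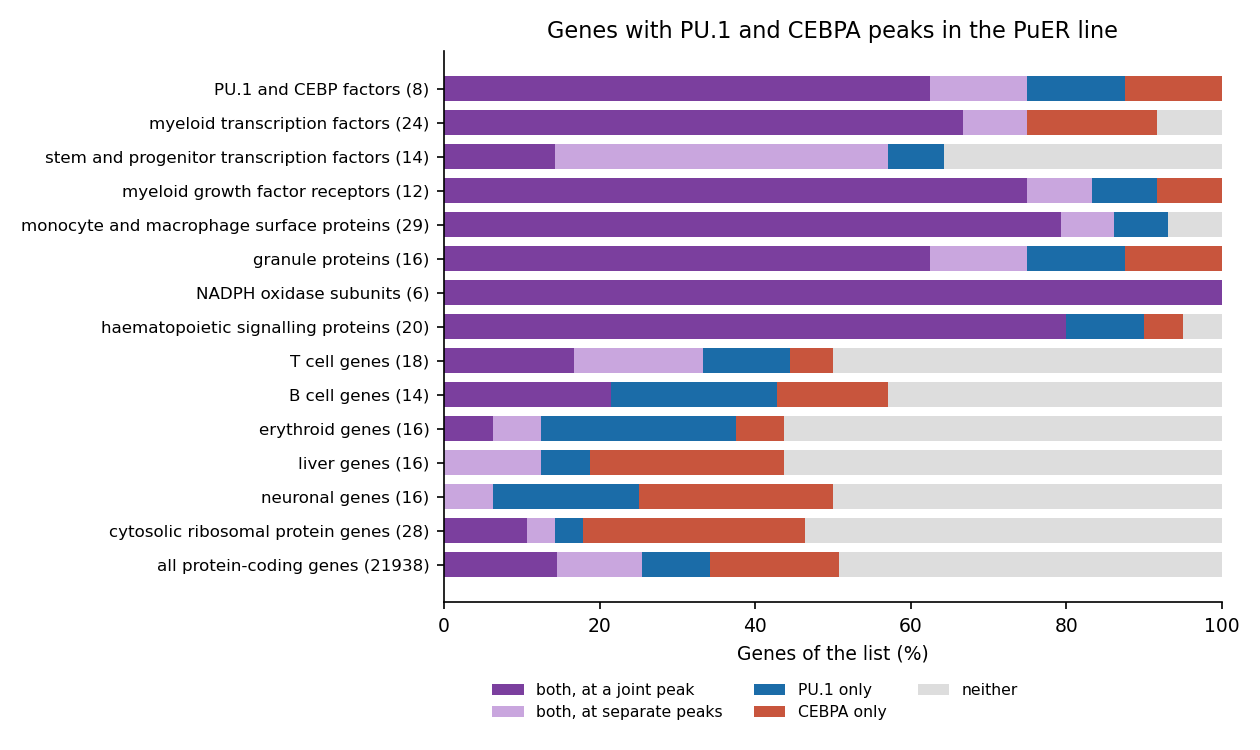
Percent of the genes in each list (number of genes in parentheses) with both factors at a joint peak, both at separate peaks only, PU.1 only, CEBPA only or neither in the PuER line. Joint peaks are at 14.3% of the stem and progenitor transcription factors, 62.5% to 100% of the genes of the other 7 haematopoietic and myeloid lists and 14.6% of all protein-coding genes.

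Of 14 stem and progenitor transcription factors, 2 (*Elf1* and *Hhex*) had a joint peak, but 6 (*Gata2*, *Tal1*, *Lmo2*, *Fli1*, *Erg* and *Mecom*) had both factors at separate peaks, against 10.9% of all genes, *Lyl1* had PU.1 only and 5 (*Meis1*, *Ldb1*, *Bmi1*, *Hoxa9* and *Hoxa10*) had neither. *Fli1*, an ETS factor of haematopoietic and endothelial cells, had 7 PU.1 and 7 CEBPA peaks, none of which overlapped. *Lyl1*, a basic helix-loop-helix factor of haematopoietic progenitors, had its PU.1 peak 99 bp upstream of its start.

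Among the surface proteins, *Fcgr2b* (inhibitory Fc receptor) had 7 joint peaks, *Itgb2*, *Cx3cr1* (fractalkine receptor) and *Ccr2* (monocyte chemokine receptor) had 4 each, and *Tyrobp* (adaptor of activating receptors) and *Msr1* (scavenger receptor) had PU.1 only. Among the growth factor receptors, *Il6ra* (interleukin-6 receptor) had 4 joint peaks, *Ifngr1* 3, *Ifngr2*, *Il6st* (the signalling chain gp130) and *Flt3* 2 each, while *Csf1r*, the receptor for macrophage colony-stimulating factor, had a PU.1 peak only and *Kit*, the stem cell factor receptor, CEBPA only. Among the transcription factors, *Zeb2* and *Etv6* had 5 joint peaks each, *Ikzf1* 4, and *Irf1*, *Klf4*, *Maf* and *Irf8* had CEBPA only. The call at *Irf8*, a partner of PU.1 in monocytes, rested on the assignment. *Irf8* lies within *Gm20388*, a read-through annotation of 4435 kb that took the peaks around it. With the 2 annotations over 2500 kb left out, a choice made after the data were seen, *Irf8* had 3 joint, 4 PU.1-only and 7 CEBPA-only peaks. No other listed gene changed class. Among the granule proteins, *S100a8* had 5 joint peaks, *Mmp8* 4, *S100a9* 3 and *Prtn3* 2. *Ltf* and *Mmp9* had PU.1 only, and *Ctsg* and *Hp* CEBPA only. Among the signalling proteins, *Bcl2* had 5, *Tnfaip3* 4, *Syk* and *Plcg2* 3 each, and *Dok2* and *Btk* had PU.1 only.

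The genes of the factors themselves were bound at several places. At *Spi1*, which encodes PU.1, a joint pair with centres 36 bp apart (CEBPA chr2:91082853-91083252, PU.1 chr2:91082889-91083288) lay in an intron 0.7 kb downstream of the first annotated start and 13.01 kb upstream of another. Both peaks were also called in the empty-vector line. A PU.1-only peak followed at 2338 bp and CEBPA-only peaks at 5637, 6933 and 15977 bp from the first start, and another CEBPA-only peak lay 10129 bp upstream. From that other start, in the same order, these peaks lay 11.37, 8.07 and 6.77 kb upstream, 2.27 kb downstream and 23.84 kb upstream. *Cebpa* had a joint pair 32 bp apart, 7757 bp downstream of its start. It also had 3 PU.1-only and 5 CEBPA-only peaks, and at 37321 and 38389 bp downstream a PU.1 and a CEBPA peak lay near each other without overlapping. *Cebpe*, encoding a late granulocytic CEBP factor, had PU.1 at its promoter, 8 bp downstream and 924 bp upstream of the start, and CEBPA apart from it, 5445 and 6128 bp downstream. *Cebpb* had CEBPA only, at 21153 and 21857 bp downstream.

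Promoters held by both factors at the same place included *Elane*, the neutrophil elastase gene, where the PU.1 centre lay 6 bp upstream and the CEBPA centre 6 bp downstream of the start. *S100a8* had a joint promoter pair 64 and 12 bp upstream, and 4 more joint pairs between 9188 bp upstream and 18017 bp downstream. At other promoters the factors were split. *Mpo*, encoding myeloperoxidase, had PU.1 alone 29 bp upstream of its start and a joint pair 3271 bp upstream. *Ncf1*, encoding the oxidase subunit p47phox, had PU.1 7 bp upstream, CEBPA 1412 bp downstream and a joint pair 3147 bp upstream. *Csf3r*, the granulocyte colony-stimulating factor receptor, had CEBPA alone 98 bp from its start and a joint pair 6591 bp upstream.

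Several loci held a row of joint pairs, and these varied in what was called in the empty-vector line. *Cybb* had 3 joint pairs in introns, with centres 86, 131 and 329 bp apart and the PU.1 centres 24850, 16774 and 27285 bp downstream of the start. The CEBPA peaks of all 3 pairs were called in the empty-vector line and the PU.1 peaks of none. *Itgb2* had a joint pair at its start, with the PU.1 centre 83 bp and the CEBPA centre 50 bp downstream, and 3 more in introns 14896, 18545 and 20898 bp downstream by the PU.1 centre. In the empty-vector line 1 of the 4 *Itgb2* pairs had both peaks, 2 the CEBPA peak alone and 1 the PU.1 peak alone. *Il6ra* had a joint pair at its promoter, with the PU.1 centre 63 bp and the CEBPA centre 136 bp upstream, and others 1767, 7605 and 51909 bp downstream. Of these 4 *Il6ra* pairs, 2 had both peaks in the empty-vector line, 1 the CEBPA peak alone and 1 the PU.1 peak alone. *Fcgr2b* had joint pairs from 40332 bp downstream to 29982 bp upstream of its start, the last with centres 3 bp apart. Of these 7 *Fcgr2b* pairs, 5 had both peaks in the empty-vector line, 1 the CEBPA peak alone and 1 neither. At its own promoter the factors were apart, with PU.1 442 bp downstream and CEBPA 706 bp upstream. *Hk2* also had the factors apart at its start, with CEBPA alone 13 bp upstream of the start and joint PU.1 peaks between 32849 bp downstream and 49950 bp upstream, none of which was called for PU.1 in the empty-vector line.

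By number of joint peaks the leading protein-coding genes were *Gm20388* (15), *Trps1* (12), *Rad51b* (9), *Srgap2*, *Abca13* and *Fgfr2* (8 each), and *Fcgr2b*, *Hk2*, *Irf2* and *Fam49b* (7 each). Several of these span long stretches. *Gm20388* is annotated over 4435 kb and *Fgfr2* over 2961 kb, and both overlap many other genes, whereas *Fcgr2b* measures 17.9 kb and *Hk2*, encoding a hexokinase, 49.4 kb. The genes with most PU.1 peaks and no CEBPA peak were *Dok2*, encoding an adaptor that limits myeloid signalling, *Bco2* and *Tut4* (5 each), and *Gimap6* and *Mtfr2* (4 each). At *Dok2* the peaks lay 2262, 8368, 15269, 19476 and 26760 bp from the start, and none overlapped an empty-vector PU.1 peak. The genes with most CEBPA peaks and no PU.1 peak were *Trib1* (11), *Slc17a5*, *Suclg2* and *Magi1* (7 each), and *Eef1a1* (6). *Trib1* encodes a pseudokinase that targets CEBPA for degradation, and its 11 peaks spread from 14469 bp upstream to 45398 bp downstream of the start. All but 1 of them were also called with the CEBPA antibody in the empty-vector line.

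The same pair of antibodies in the empty-vector line gave another balance of classes, with 5288 PU.1 and 26119 CEBPA peaks. There 57.6% of PU.1 peaks (56.3–58.9%) and 11.7% of CEBPA peaks (11.3–12.1%) were joint. The difference of PuER minus empty vector was −27.8 percentage points for PU.1 (−29.3 to −26.2) and 11.1 points for CEBPA (10.4 to 11.8). The number of peaks called moves with these shares, and its part in them was not tested. Joint centres lay somewhat farther apart in PuER, with a median of 52 bp (50–54 bp) against 44 bp (41–46 bp) in empty vector. Each class overlapped the empty-vector lists to its own extent. Of joint PU.1 peaks 36.9% (35.5–38.3%) overlapped an empty-vector PU.1 peak and 77.0% (75.8–78.2%) an empty-vector CEBPA peak, and 19.8% overlapped neither. Of PU.1-only peaks the shares were 11.3%, 4.27% and 86.2%. Of CEBPA-only peaks 91.0% (90.6–91.5%) overlapped an empty-vector CEBPA peak and 6.23% an empty-vector PU.1 peak. By gene, 65.4% of the 2457 genes with a joint peak in empty vector had one in PuER. Of the 6779 genes with CEBPA only in empty vector, 15.7% had a joint peak in PuER, 22.1% had both factors at separate peaks and 43.4% still had CEBPA only.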

How the data were processed

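ChIP-Seq peak lists were used for PU.1 and CEBPA in the PuER and empty-vector lines, 1 library each. The other 4 samples of the series were not analysed here. Per the submitters' processing notes, reads were aligned with Bowtie2 2.0.6 to mm10 and peaks were called with MACS2 2.0.10. The calling threshold and how peaks came to be 400 bp wide are not given in the sources used here. The deposited lists hold coordinates only, with no score, signal or p-value. Whether the libraries differ in depth is unknown, and a deeper library gives more peaks.

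Peaks were compared by at least 1 bp of overlap, and centres by distance. Starts and exons came from GENCODE vM21 protein-coding genes and sequence from GRCm38. Motifs were searched on both strands in the central 80 bp, and in windows 2000 bp to either side. Named genes were those with most joint, PU.1-only or CEBPA-only peaks, the factors' own genes and the members of fixed lists. *Clec7a* was not found in the annotation by that name, which left 29 of 30 surface proteins. Members and lists were chosen with earlier results of these data known. Python 3.11.15, pandas 2.3.3, scipy 1.17.1, bedtools 2.31.1 and pysam 0.24.0 were used. Overlap and motif counting were tested on 2000 simulated peaks and recovered 100% of the planted overlaps. Alternatives for overlap, promoter width, assignment distance, window and motif are described at the end.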

Additional observations from a re-analysis of the deposited data

How the results depend on the processing

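All 32 alternative differences between classes of peaks kept their sign. The interval of joint minus PU.1-only peaks at promoters of 500 bp included no difference. Of 68 alternative values in all, 27 moved by more than the counting interval (counts of genes, by over 1.5 times). Where both peaks had to share 50% of their length, the joint share was 26.7% of PU.1 and 20.3% of CEBPA peaks and the spacing 45 bp, and with centres within 100 bp these were 22.3%, 17.0% and 36 bp. Of merged regions 14.8% held both factors. With promoters of 500 bp the difference of joint minus CEBPA-only peaks was −6.97 percentage points. For ETS sites, joint minus PU.1-only was −5.84 in the whole peak, −24.7 around CEBPA centres and −3.27 for the core GGAA, and joint minus CEBPA-only was 33.5, 13.9 and 32.5 points. For CEBP sites, joint minus PU.1-only was 15.6 with centres within 100 bp, 27.5 in the whole peak, 27.6 around CEBPA centres and 19.2 for TTGCNNNA, and joint minus CEBPA-only was −20.3, −11.0, −8.85 and −35.5 points. PuER minus empty vector, with overlap rules added after seeing the data, was −26.2 (50% overlap) and −22.9 points (100 bp) for PU.1 and 9.63 and 7.84 points for CEBPA. Gene counts stayed within 1.5 times the values given, also with annotations over 2500 kb left out (added after seeing the data), where 32 genes changed class. The whole peak and the CEBPA-centred windows include other sequence by construction, and for the remaining changes the cause was not tested.

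No paired analysis was possible because there was 1 library for each antibody and line. A stricter calling threshold was not run, because the lists hold no score. Peak numbers depend on depth and on that threshold, both unknown, so a share of joint peaks cannot be separated from how many peaks were called. Neighbouring peaks, and genes that share a peak, are not independent.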
